A study of Homo sapiens with 3 samples.

Results

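NRF2, its inhibitor KEAP1 and 8 genes linked to them were followed by transcript level in MDA-MB-231, a long-established line of human breast cancer cells. The 10 genes were chosen by symbol from the deposited table, with earlier results of these data known: NFE2L2 (the gene of NRF2), KEAP1, AKR1B1, AKR1C1, AKR1C3, NQO1, HMOX1, GCLM, TXNRD1 and ABCC1. All 10 were found among 19049 genes. The cells of every group carried a short hairpin RNA against KAP1, the chromatin corepressor encoded by TRIM28, and re-expressed KAP1 in 1 of 3 forms. In S473D a serine gave way to aspartate, whose charge resembles that of a phosphorylated serine. In S473A the same serine gave way to alanine, which takes no phosphate, and wt is the wild-type form. Each form gave 1 RNA-seq library, so no spread between cultures is known and no p-value is given. The labels do not say whether a group is a clone or a pool, nor what drives the re-expressed KAP1.

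NRF2 is a transcription factor of the cap'n'collar family that binds, with a small MAF partner, to antioxidant response elements in the control regions of its targets. In unstressed cells KEAP1 holds NRF2 and presents it to a CUL3 and RBX1 ubiquitin ligase, and oxidants or electrophiles that modify KEAP1 let NRF2 accumulate. Because that control acts on the protein, the NFE2L2 transcript is a poor guide to NRF2 activity, and target transcripts are the usual readout. The targets include enzymes of quinone and carbonyl reduction (NQO1 and the aldo-keto reductases), haem breakdown (HMOX1), glutathione synthesis (GCLM), thioredoxin recycling (TXNRD1) and conjugate export (ABCC1).

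The deposited values are log2 of RPKM, reads per kilobase of gene model scaled to the depth of each library. The authors' offset of 0.1 was taken off to recover RPKM values. Because RPKM is scaled to length, levels can be set side by side between genes. The depth, estimated from the steps between low values, was 24000000 reads for S473D, 29500000 for S473A and 25800000 for wt. TRIM28 itself stood at 25.6 RPKM in S473D, 32.3 RPKM in S473A and 28.7 RPKM in wt, a value that does not separate the cell's own transcript from the re-expressed one. VIM, CD44, AXL and MSN, markers of the mesenchymal type to which this line belongs, stood between 87.9 and 740 RPKM in all 3 libraries, but SPARC, also listed, was at 0.128 to 0.208 RPKM. Of 7 luminal and epithelial markers, ESR1, PGR, CDH1, EPCAM and ERBB3 were below 1 RPKM in every library and GATA3 and FOXA1 were between 1.41 and 1.96 RPKM. The leukocyte marker PTPRC and the endothelial marker PECAM1 did not pass 0.132 RPKM. In bulk RNA fewer cells with a transcript and less of it per cell cannot be told apart.

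Promoter windows of the genes that stood furthest from wt, NQO1 and AKR1C3, are shown beside those of GCLM and TXNRD1, targets that stayed near wt. Each runs from 250 bases before to 50 after a transcription start in RefSeq on GRCh38.p14, which is not the hg19 build of the deposited values, and reads 5′ to 3′ along the gene. Capitals mark the core of the antioxidant response element, TGACNNNGC, searched on both strands. NQO1 has its window on the minus strand of chromosome 16 (chr16:69726511-69726810), GCLM on the minus strand of chromosome 1 (chr1:93909381-93909680), AKR1C3 on the plus strand of chromosome 10 (chr10:5048531-5048830 and chr10:5094164-5094463) and TXNRD1 on the plus strand of chromosome 12 (chr12:104215529-104215828 and chr12:104286782-104287081).
NQO1: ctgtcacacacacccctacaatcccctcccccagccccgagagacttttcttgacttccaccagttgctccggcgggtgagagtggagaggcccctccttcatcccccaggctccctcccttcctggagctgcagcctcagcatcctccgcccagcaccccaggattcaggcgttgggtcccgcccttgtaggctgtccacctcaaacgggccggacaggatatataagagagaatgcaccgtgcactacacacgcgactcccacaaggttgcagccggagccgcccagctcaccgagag
AKR1C3 window 1: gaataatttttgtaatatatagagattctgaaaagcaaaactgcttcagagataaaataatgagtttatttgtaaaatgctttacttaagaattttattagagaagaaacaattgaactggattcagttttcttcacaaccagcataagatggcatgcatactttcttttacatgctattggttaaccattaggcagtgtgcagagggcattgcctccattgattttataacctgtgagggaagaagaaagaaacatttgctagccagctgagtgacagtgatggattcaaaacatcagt
AKR1C3 window 2: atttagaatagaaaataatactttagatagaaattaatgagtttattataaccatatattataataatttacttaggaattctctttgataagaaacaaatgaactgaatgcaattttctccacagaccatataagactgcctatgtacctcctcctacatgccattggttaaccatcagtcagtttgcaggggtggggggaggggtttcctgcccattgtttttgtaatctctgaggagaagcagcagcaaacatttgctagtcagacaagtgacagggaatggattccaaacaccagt
GCLM: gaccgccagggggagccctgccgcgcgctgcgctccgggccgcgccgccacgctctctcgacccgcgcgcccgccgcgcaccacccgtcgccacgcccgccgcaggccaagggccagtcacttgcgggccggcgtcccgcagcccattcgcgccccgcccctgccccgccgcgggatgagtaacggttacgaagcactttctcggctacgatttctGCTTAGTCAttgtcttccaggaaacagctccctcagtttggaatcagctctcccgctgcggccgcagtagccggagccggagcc
TXNRD1 window 1: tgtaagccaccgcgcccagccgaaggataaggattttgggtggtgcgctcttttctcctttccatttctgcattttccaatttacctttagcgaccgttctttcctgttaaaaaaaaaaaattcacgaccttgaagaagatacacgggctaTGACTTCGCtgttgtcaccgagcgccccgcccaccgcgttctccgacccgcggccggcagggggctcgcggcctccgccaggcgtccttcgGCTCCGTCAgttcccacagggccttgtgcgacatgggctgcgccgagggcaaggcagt
TXNRD1 window 2: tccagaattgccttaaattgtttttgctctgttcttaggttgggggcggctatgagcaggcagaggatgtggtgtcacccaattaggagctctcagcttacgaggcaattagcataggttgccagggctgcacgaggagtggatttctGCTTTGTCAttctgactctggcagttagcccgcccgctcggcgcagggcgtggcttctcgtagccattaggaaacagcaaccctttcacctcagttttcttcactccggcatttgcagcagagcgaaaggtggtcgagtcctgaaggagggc

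The table of windows held 8 of the 10 genes, with 13 windows among them, and lacked HMOX1 and ABCC1. The core TGACNNNGC stood in 4 of the 13 windows, those of GCLM, both of TXNRD1 and 1 of KEAP1, against 13.3% of all 35116 windows. The GCLM site and 1 of the KEAP1 sites share the letters TGACTAAGC. The windows of NQO1, AKR1C3, AKR1C1, AKR1B1 and NFE2L2 held no such letters, which says nothing of elements further from the start. The AP-1 motif TGAGTCA, which overlaps the element where its open bases read TCA, stood in 0 of the 13 windows and in 4.95% of all windows. Among the 8 genes with a window, those with the core in it, GCLM, TXNRD1 and KEAP1, were not those that stood furthest from wt. Whether the core plays a part in any difference was not tested.

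Levels of the 10 genes ran from below 1 RPKM to 285 RPKM. AKR1B1, which encodes aldose reductase, was the highest of them at 269 RPKM in S473D, 285 RPKM in S473A and 245 RPKM in wt. TXNRD1, the cytosolic thioredoxin reductase gene, came next at 85.7 RPKM in S473D, 81.0 RPKM in S473A and 82.0 RPKM in wt. These first 2 places were clear of the others in every library. NFE2L2, KEAP1 and NQO1 followed, and their ranges over the 3 libraries overlapped (35.02 to 37.6, 31.5 to 35.3 and 29.3 to 48.5 RPKM). The order of these 3 was NQO1, NFE2L2, KEAP1 in S473D, NQO1, KEAP1, NFE2L2 in S473A and NFE2L2, KEAP1, NQO1 in wt. GCLM (12.6 to 14.9 RPKM) and ABCC1 (7.76 to 12.0 RPKM) came below them without overlap. AKR1C3 (3.35 to 7.55 RPKM) overlapped HMOX1 (3.67 to 4.14 RPKM), and AKR1C1 was below 1 RPKM in every library.

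**Figure D1:**
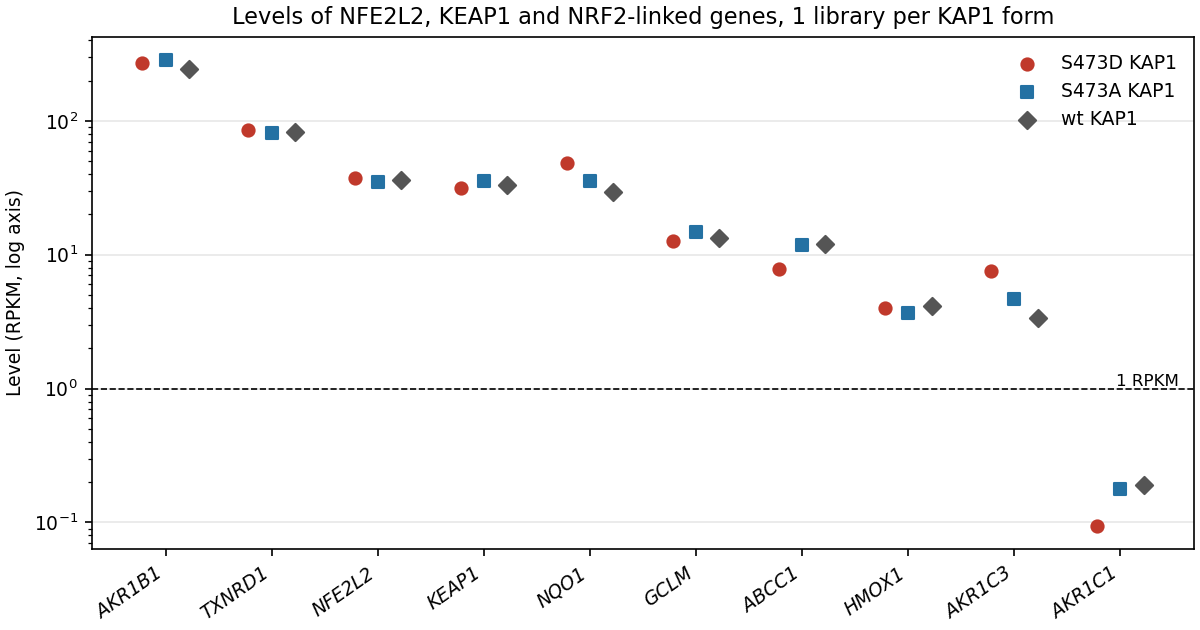
Level of each of the 10 genes in RPKM on a log axis, 1 point per library (circle S473D, square S473A, diamond wt), ordered by the wt level. NQO1 and AKR1C3 step up through wt, S473A and S473D, ABCC1 is lowest in S473D, and AKR1C1 lies below 1 RPKM in all 3.

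Differences are given as log2(RPKM + 1) of one library minus that of another, a scale that understates those of low genes, over the 11571 genes whose mean reached 1 RPKM. AKR1C1 stayed below that mean, so 9 of the 10 genes are compared. Thresholds of 1.5-fold and 2-fold on that scale mark the genes counted as apart. At 1.5-fold, 2 of the 9 genes (AKR1C3 and NQO1) were higher in S473D than in wt, where 6.83% of all genes were, and 0 were lower, where 3.23% of all genes were, or 10.1% in either direction. Between S473A and wt 0 of the 9 were 1.5-fold apart in either direction, where 0.0951% of all genes were higher and 0.147% lower, or 0.242% in all. Between S473D and S473A 1 of the 9 (AKR1C3) was higher in S473D, where 6.86% of all genes were, and 0 were lower, where 3% were, or 9.86% in either direction. On this scale 0 of the 9 reached 2-fold in the 3 comparisons as deposited. AKR1C3 did in S473D minus wt with a pseudocount of 0.5 (1.06) or 0.1 (1.15) in place of 1. With the pseudocount kept at 1, AKR1C3 also did after centring on the median of all genes (1.07) or scaling of the libraries (1.07). With trends on transcript length and GC content removed, as described below, AKR1C3 was at 0.58. Of all genes 0.994% were 2-fold higher and 0.0951% 2-fold lower in S473D than in wt (1.09% in all), and 0.00864% were higher and 0.00864% lower in S473A than in wt (0.0173% in all). Between S473D and S473A 1% were 2-fold higher and 0.13% 2-fold lower in S473D (1.13% in all). The median of the 9 genes was 0.06 in S473D minus wt, against -0.10 for all genes, 0.09 in S473A minus wt, against -0.00037, and 0.08 in S473D minus S473A, against -0.10. Because the genes were chosen with earlier results of these data known, these counts and medians only describe them.

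The S473D library also differed from the other libraries by transcript length. Between S473D and wt the median difference was 0.33 for 1398 genes with transcripts under 1500 bases and -0.20 for 5833 genes with transcripts of at least 3000 bases. In S473A minus wt the same medians were -0.0019 for the short transcripts and -0.0010 for the long ones. Values with smooth trends on length and GC content removed are therefore given beside differences of S473D. The removal kept the median of all genes, at -0.10 in both S473D minus wt and S473D minus S473A. Such values are therefore to be read against that median. The number of genes at least 1.5-fold apart between S473D and wt was 790 higher and 374 lower as deposited, 184 higher and 355 lower with the trends removed, and 1105 higher and 128 lower with the differences centred on their median. Between S473D and S473A it was 794 higher and 347 lower as deposited, 177 higher and 365 lower with the trends removed, and 1131 higher and 130 lower with centring. Whether the length pattern plays a part in any difference below was not tested beyond this removal.

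The regulator and its inhibitor were close to wt in both substituted forms. NFE2L2 stood at 37.6 RPKM in S473D, 35.02 RPKM in S473A and 35.9 RPKM in wt. The ratio of S473D to wt was 1.05, with an exact 95% interval for counting error alone of 0.990 to 1.10. That of S473A to wt was 0.974 (0.924 to 1.03), so as deposited both intervals hold 1. The ratio of S473D to S473A was 1.07 (1.02 to 1.13). In S473D minus wt the difference of NFE2L2 was 0.06 as deposited, 0.16 with centring and -0.02 with the trends removed. KEAP1, the adaptor that presents NRF2 to the ligase, stood at 31.5 RPKM in S473D, 35.3 RPKM in S473A and 33.1 RPKM in wt. As deposited it was lowest in S473D and highest in S473A, although S473D came out above wt with the trends removed (0.07), with a ratio to wt of 0.953 (0.900 to 1.01) in S473D and 1.07 (1.01 to 1.13) in S473A. The level of NFE2L2 over that of KEAP1 was 1.19 in S473D, 0.992 in S473A and 1.09 in wt. In S473D minus S473A the differences were 0.10 for NFE2L2 and -0.16 for KEAP1, and 0.01 and -0.01 with the trends removed.

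NQO1, which encodes the quinone reductase most often used as a marker of NRF2 activity, stood at 48.5 RPKM in S473D, 35.7 RPKM in S473A and 29.3 RPKM in wt. Its levels stepped up through wt, S473A and S473D. The ratio to wt was 1.66 (1.57 to 1.75) in S473D and 1.22 (1.15 to 1.29) in S473A, and that of S473D to S473A was 1.36 (1.29 to 1.43). The difference from wt was 0.71 in S473D, or 0.65 with the trends removed, and 0.28 in S473A, or 0.29 with them removed. It held place 478 of 11571 from the top in S473D minus wt and place 115 in S473A minus wt.

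AKR1C3, a ketosteroid reductase that also makes prostaglandin F, had the widest span of the 9 genes. It stood at 7.55 RPKM in S473D, 4.64 RPKM in S473A and 3.35 RPKM in wt. Like NQO1 it was lowest in wt and highest in S473D. The ratio to wt was 2.25 (1.85 to 2.74) in S473D and 1.39 (1.13 to 1.70) in S473A. Its difference in S473D minus wt was 0.97, but 0.58 with the trends removed, just under the 1.5-fold threshold of 0.585. The median of all genes, against which that value is to be read, was then -0.10. In S473A minus wt it was 0.37, or 0.38 with the trends removed, at place 49 of 11571 from the top. In S473D minus S473A it was 0.60, or 0.19 with the trends removed, so the step between the substituted forms shrank most. An estimated 327 reads lay behind its value in S473D, 247 in S473A and 156 in wt.

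AKR1B1, which reduces glucose to sorbitol and detoxifies lipid aldehydes, had another order of libraries. It was at 269 RPKM in S473D, 285 RPKM in S473A and 245 RPKM in wt, so S473A was the highest as deposited, although centring put S473D just above it. The ratio to wt was 1.10 (1.07 to 1.13) in S473D and 1.16 (1.14 to 1.19) in S473A. Its difference in S473A minus wt, 0.22 both as deposited and with the trends removed, held place 229 of 11571 from the top, within the uppermost 1.98%. In S473D minus wt the difference was 0.13, or 0.04 with the trends removed. GENCODE names 7 pseudogenes of AKR1B1, and reads could be shared with them.

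**Figure D2:**
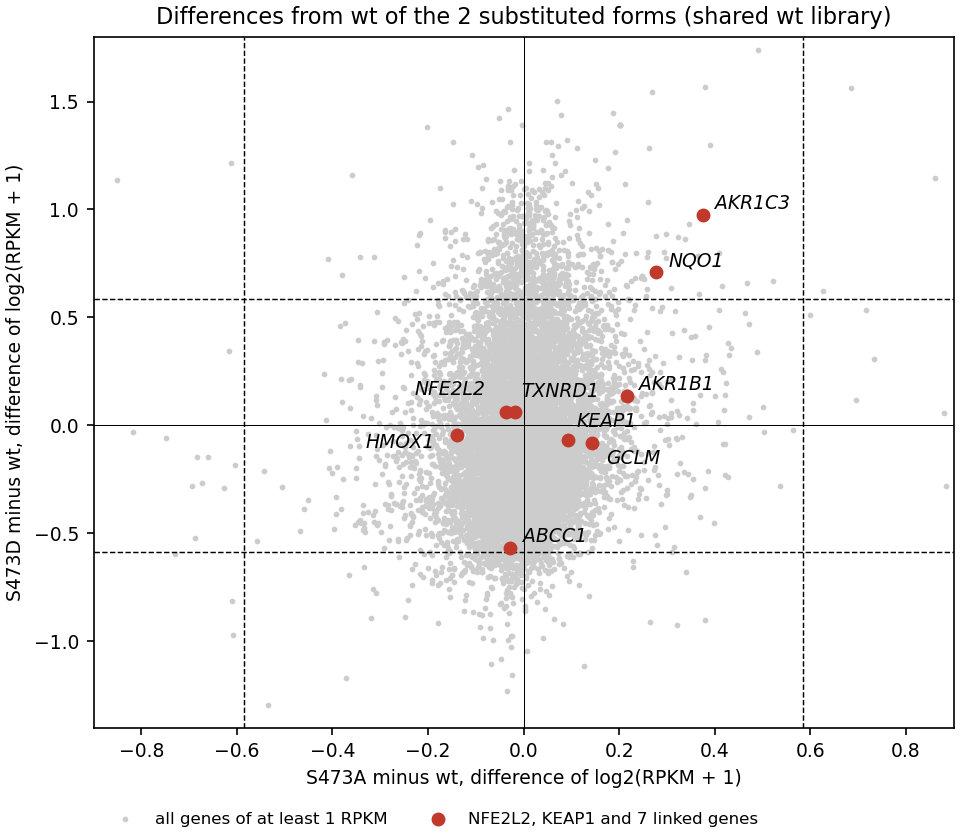
Difference from wt on log2(RPKM + 1) in S473D (vertical axis) and S473A (horizontal axis) for the genes whose mean reached 1 RPKM (grey; genes beyond the axes are not drawn) and the 9 genes compared (red). Both axes subtract the same wt library, and dashed lines mark 1.5-fold. AKR1C3 (0.97 in S473D and 0.37 in S473A) and NQO1 (0.71 in S473D and 0.28 in S473A) lie to the upper right, and ABCC1 (-0.57 in S473D and -0.03 in S473A) near the lower line.

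In the aldo-keto reductase family, whose enzymes reduce aldehydes and ketones with NADPH, 4 of 13 genes in the table reached 1 RPKM in each library. The summed level of the family was 330.4 RPKM in S473D, 330.7 RPKM in S473A and 291 RPKM in wt, and AKR1B1 made up 81.4% of it in S473D, 86.1% in S473A and 84.2% in wt. AKR1A1, the aldehyde reductase gene, stood at 33.8 RPKM in S473D, 24.7 RPKM in S473A and 25.2 RPKM in wt. AKR7A2, which reduces succinic semialdehyde, stood at 19.3 RPKM in S473D, 15.8 RPKM in S473A and 16.4 RPKM in wt. The difference in S473D minus wt was 0.41 for AKR1A1 and 0.22 for AKR7A2, or 0.31 and 0.02 with the trends removed. Both were highest in S473D and slightly lower in S473A than in wt (differences of -0.03 and -0.06), unlike AKR1C3 and AKR1B1.

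AKR1C1, a steroid and xenobiotic reductase gene strongly induced by NRF2 in many human cells, was near the limit of measurement. It stood at 0.0944 RPKM in S473D, 0.179 RPKM in S473A and 0.192 RPKM in wt. Its relative AKR1C2 stood at 0.0418 RPKM in S473D, 0.0458 RPKM in S473A and 0 in wt, and AKR1B10, another NRF2 target, at 0.183 RPKM in S473D, 0.234 RPKM in S473A and 0.194 RPKM in wt. The AKR1B10 values came out as 7 reads in S473D, 11 in S473A and 8 in wt. No interval is given for AKR1C1, because its reads can be shared with AKR1C2. Of the 50-base stretches of its GENCODE transcript, 28.3% also stand in AKR1C2 transcripts. The transcript taken for each gene was the longest with a RefSeq record or, where none had such a record, the longest. Of the stretches of AKR1C3 7.68% stand in AKR1C1 and 9.61% in AKR1C2, but both relatives were below 0.2 RPKM in every library while AKR1C3 was above 3 RPKM.

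HMOX1, which opens the haem ring and releases iron, was low and close to wt. It stood at 3.98 RPKM in S473D, 3.67 RPKM in S473A and 4.14 RPKM in wt. By transcript length, an estimated 174 reads lay behind its value in S473D, 197 in S473A and 195 in wt, at different depths. Taken as whole reads from the steps between values, these came out lower, at 152, 172 and 170. The intervals that follow rest on the larger numbers. The ratio to wt was 0.961 (0.777 to 1.18) in S473D and 0.885 (0.721 to 1.08) in S473A, and both intervals hold 1.

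GCLM, the modifier subunit of the enzyme that starts glutathione synthesis, stood at 12.6 RPKM in S473D, 14.9 RPKM in S473A and 13.4 RPKM in wt. It was highest in S473A, at 1.11 times wt (1.04 to 1.19), and place 635 from the top in S473A minus wt. Its ratio to wt in S473D was 0.940 (0.876 to 1.01), which holds 1. Its level in S473D was 0.846 times that in S473A (0.791 to 0.904), a difference of -0.23, or -0.34 with the trends removed.

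TXNRD1, a selenoprotein that recycles thioredoxin, varied least of the 10 genes as deposited. The highest of its 3 levels was 1.06 times the lowest. Its ratio to wt was 1.04 (1.01 to 1.08) in S473D and 0.988 (0.960 to 1.02) in S473A. With the trends removed its difference from wt was 0.09 in S473D and -0.006 in S473A. Those of NFE2L2 were then -0.02 and -0.03.

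ABCC1, the exporter of glutathione conjugates also known for drug resistance, had the most negative difference of the 9 genes in S473D. It stood at 7.76 RPKM in S473D, 11.7 RPKM in S473A and 12.0 RPKM in wt. S473A and wt were close to each other and S473D below both. Its level in S473D was 0.647 times that in wt (0.602 to 0.695), and in S473A 0.979 times (0.921 to 1.04). On log2(RPKM + 1) its difference in S473D minus wt was -0.57, just short of the 1.5-fold threshold, and -0.26 with the trends removed. Its transcript, at 6552 bases, is among the long ones whose levels ran lower in that library.

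**Figure D3:**
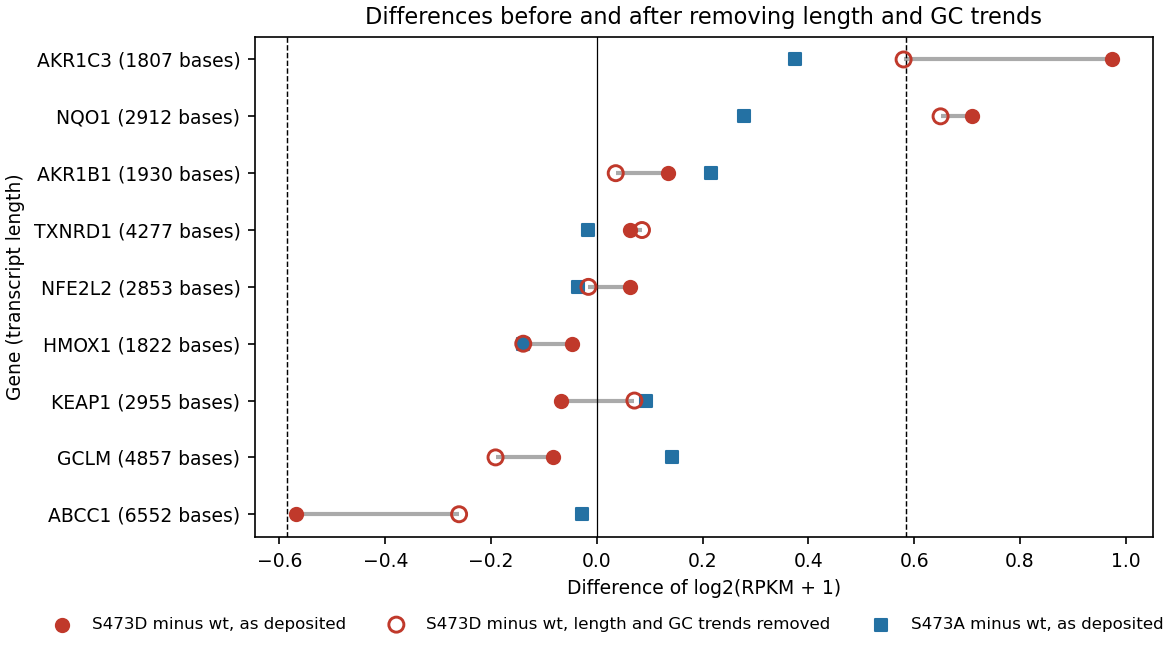
Difference from wt on log2(RPKM + 1) of the 9 genes: S473D as deposited (filled circles), S473D with trends on transcript length and GC content removed (open circles) and S473A as deposited (squares). Dashed lines mark 1.5-fold. NQO1 keeps 0.65 of its 0.71, AKR1C3 0.58 of its 0.97 and ABCC1 -0.26 of its -0.57.

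**Figure D4:**
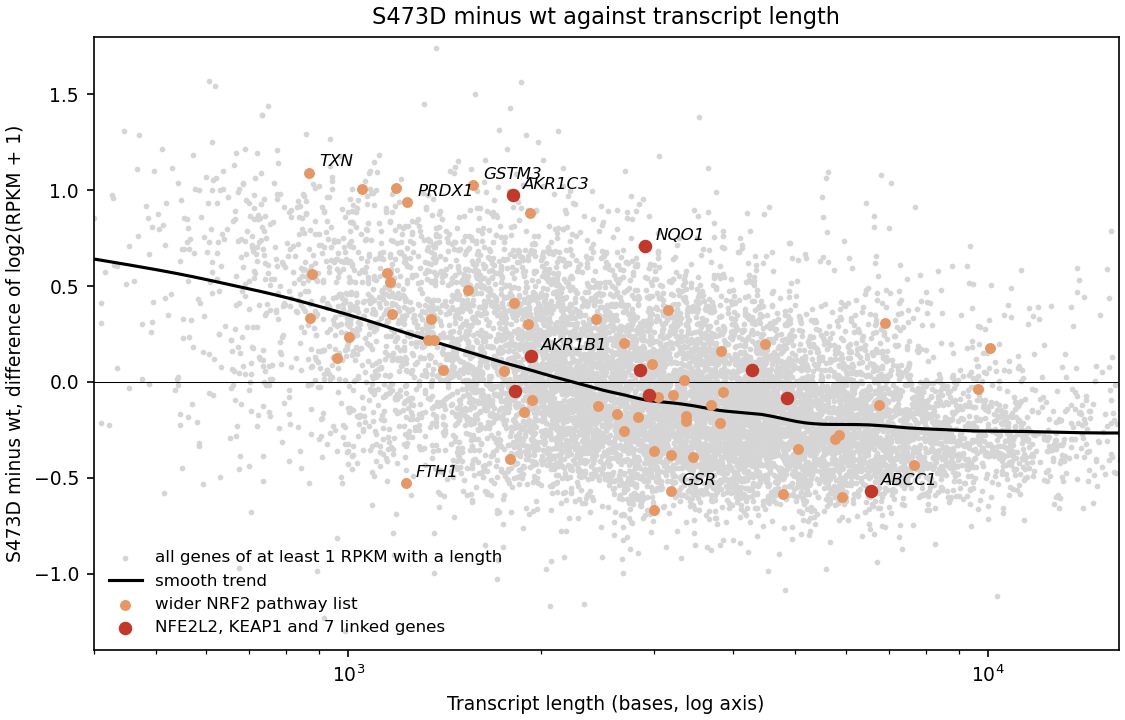
Difference S473D minus wt on log2(RPKM + 1) against transcript length on a log axis, for all genes of at least 1 RPKM with a matched length (grey, some beyond the axes), the wider pathway list (orange) and the 9 genes compared (red), with the smooth trend over all genes (line). The trend runs downward with length, and NQO1 at 2912 bases and GSTM3 at 1565 bases lie above it while FTH1 and GSR lie below it.

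By the distance between their pairs of differences from wt, over 3 libraries, the members fell into close neighbours and isolated genes. NFE2L2 and TXNRD1 were nearest to each other (0.0193), as were KEAP1 and GCLM (0.0523) and, at a wider distance, AKR1C3 and NQO1 (0.283). ABCC1 had no near member (0.515 to GCLM). Among 3362 genes whose mean reached 20 RPKM, those nearest to NFE2L2 were PDIA6, PRDX6 and EIF3G, at distances of 0.00411 to 0.00549. Those nearest to AKR1C3, whose own mean was 5.18 RPKM, were C19orf33, NDUFB7 and TAPT1-AS1, at 0.203 to 0.222. These distances were no larger than the counting error of the ratios of AKR1C3 to wt. Genes below a mean of 20 RPKM were not searched. Distances from NFE2L2 to its neighbours, and from KEAP1 to GCLM, were below the counting error of the ratios to wt of NFE2L2, KEAP1 and GCLM. Such distances set no order among neighbours. With the trends removed KEAP1 stood at 0.07 and GCLM at -0.19 in S473D minus wt.

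A wider list of 71 other NRF2 regulators, targets and aldo-keto reductases, sorted by role and also chosen with earlier results known, was compared in the same way. The table held 70 of them, and 58 reached a mean of 1 RPKM. Between S473D and wt 6 of the 58 were at least 1.5-fold higher and 3 at least 1.5-fold lower, near the 6.83% and 3.23% of all genes, and 4 were at least 2-fold higher, where 0.994% of all genes were. The transcripts of these 4 genes (RBX1, GSTM3, GSTO1 and TXN) are 869 to 1565 bases long, and with the trends removed 0 of the 58 were 2-fold higher, 4 were 1.5-fold higher (RBX1, GSTM3, PRDX1 and CBR1) and 1 was 1.5-fold lower (FTH1). Of the 10781 genes with a matched length, 21 were then 2-fold higher, 184 were 1.5-fold higher and 355 were 1.5-fold lower. Between S473A and wt 0 of the 58 were 1.5-fold apart, and their differences lay between -0.25 and 0.17. Between S473D and S473A 6 were at least 1.5-fold higher and 2 at least 1.5-fold lower, where 6.86% and 3% of all genes were. With the trends removed 2 of the 58 were higher and 3 lower, where 177 of the 10781 genes were higher and 365 lower. The median of the 58 was 0.03 in S473D minus wt, or -0.06 with the trends removed, and 0.01 in S473A minus wt, against -0.10 and -0.00037 for all genes.

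Among regulators, RBX1, the ring-finger subunit of the ligase that KEAP1 serves, stood at 83.3 RPKM in S473D, 41.8 RPKM in S473A and 40.8 RPKM in wt, while its partner CUL3 was at 12.0 RPKM in S473D, 13.5 RPKM in S473A and 13.1 RPKM in wt. RBX1 was 2.04 times wt in S473D (1.91 to 2.19), a difference of 1.01, or 0.60 with the trends removed. NFE2L1, the NRF2 relative that drives proteasome genes, was at 50.9 RPKM in S473D, 74.5 RPKM in S473A and 77.0 RPKM in wt, a difference from wt of -0.59 in S473D, or -0.33, under 1.5-fold, with the trends removed. The other 8 regulators, among them the MAF partners and the competing repressor BACH1, were under 1.5-fold apart in all comparisons. BACH1 stood at 17.3 RPKM in S473D, 19.9 RPKM in S473A and 21.4 RPKM in wt.

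In the glutathione group, GSTM3 and GSTO1, both glutathione transferase genes, were at least 2-fold higher in S473D than in wt. GSTM3 stood at 13.3 RPKM in S473D, 5.35 RPKM in S473A and 6.04 RPKM in wt, and its difference from wt in S473D was 1.03, or 0.78 with the trends removed. GSTO1 stood at 224.5 RPKM in S473D, 112 RPKM in S473A and 111 RPKM in wt, and its difference of 1.005 was 0.48 with the trends removed. GSR, which regenerates reduced glutathione, had the most negative difference of the group in S473D and stood at 6.73 RPKM in S473D, 10.7 RPKM in S473A and 10.5 RPKM in wt. In S473D its difference was -0.57 from wt and -0.60 from S473A, and with the trends removed -0.55 and -0.60. GCLC, the catalytic partner of GCLM, was at 3.26 RPKM in S473D, 3.74 RPKM in S473A and 3.94 RPKM in wt, and SLC7A11, the cystine importer, at 8.62 RPKM in S473D, 9.07 RPKM in S473A and 8.86 RPKM in wt.

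The thioredoxin genes stood on both sides of wt. TXN, thioredoxin itself, stood at 431 RPKM in S473D, 197 RPKM in S473A and 202 RPKM in wt, a difference from wt of 1.09 that was 0.39 with the trends removed. PRDX1, a peroxide-reducing partner of thioredoxin, stood at 770.2 RPKM in S473D, 407 RPKM in S473A and 401 RPKM in wt, a difference of 0.94, or 0.61 with the trends removed. SRXN1, which repairs overoxidised peroxiredoxins and is a close NRF2 target, was lower in S473D, at 33.1 RPKM against 39.2 RPKM in S473A and 39.7 RPKM in wt. SESN2 had the most negative difference of the group, -0.39 in S473D minus wt, or -0.22 with the trends removed, and -0.22 in S473A minus wt. GENCODE names 7 pseudogenes of TXN and 1 of PRDX1, and reads could be shared with them.

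The 2 ferritin chains, which store iron together, differed from wt in opposite directions in S473D. FTL, the light chain, stood at 1367 RPKM in S473D, 972 RPKM in S473A and 924 RPKM in wt, and FTH1, the heavy chain, at 260 RPKM in S473D, 365 RPKM in S473A and 375 RPKM in wt. The differences from wt were 0.56 and -0.53, and 0.12 and -0.89 with the trends removed, so FTH1 then lay further from wt and FTL closer to it. Both genes have many pseudogenes, 16 and 25 by name in GENCODE, so their levels are uncertain. SLC48A1, a haem transporter, stood at 1.68 RPKM in S473D, 2.84 RPKM in S473A and 3.26 RPKM in wt. Its difference of -0.67 in S473D minus wt was the most negative of the iron and haem genes as deposited, but with the trends removed it was -0.54, under 1.5-fold, and FTH1 was the most negative.

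Of the other roles, the carbonyl reductase gene CBR1 stood at 49.0 RPKM in S473D, 28.4 RPKM in S473A and 26.2 RPKM in wt, and its difference of 0.88 in S473D minus wt was 0.77 with the trends removed. EPHX1, an epoxide hydrolase, was the lowest of its group at -0.40, or -0.51 with the trends removed. Of 6 genes that supply NADPH, TALDO1 and IDH1 were highest in S473D minus wt (0.33 each) and TKT was lowest (-0.36) as deposited. With the trends removed TALDO1 was at 0.10, IDH1 at 0.13 and TKT at -0.23, and ME1, the cytosolic malic enzyme gene, was lowest at -0.35. Among exporters ABCC5, like ABCC1, was lower in S473D, at 9.57 RPKM against 15.1 RPKM in S473A and 15.0 RPKM in wt. Its transcript is 5921 bases long, and its difference of -0.60 in S473D minus wt was -0.36, under 1.5-fold, with the trends removed. ABCG2 was the highest of the exporters at 0.20, or 0.15 with the trends removed. PIR was the highest (0.48) and LRP8 the lowest (-0.43) of the remaining targets as deposited, at 0.25 and -0.22 with the trends removed. In S473A the highest of the 58 genes was CBR3 (0.17) and the lowest PTGR1 (-0.25), both carbonyl-metabolising enzymes.

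**Figure D5:**
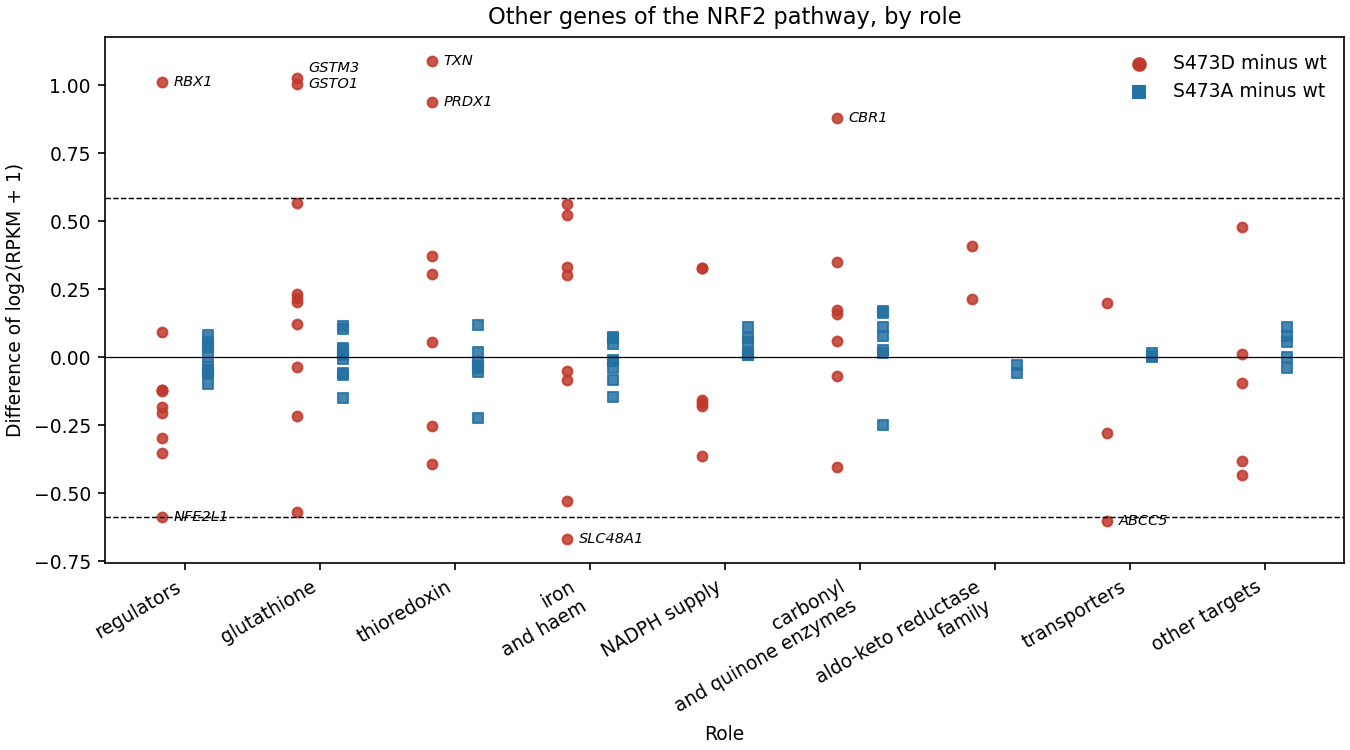
Difference from wt on log2(RPKM + 1) of the 58 further pathway genes of at least 1 RPKM, by role, in S473D (circles) and S473A (squares). Dashed lines mark 1.5-fold, and genes beyond them are named. In S473D the genes spread from -0.67 to 1.09, and in S473A from -0.25 to 0.17.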

How the data were processed

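The 3 libraries, 1 for each KAP1 form, were grouped by title. RNA was extracted with TRIzol, per the labels' protocols. Bowtie, Partek and hg19 are named per the submitters' processing notes. Versions, annotation and counting rule were not given in the sources used here. Their deposited log2 values of RPKM have a lowest value of -3.32, the log2 of 0.1, in every column, so 0.1 was subtracted after undoing the log. Of 19076 rows, 27 with date-like or repeated symbols were left out. Genes whose mean reached 1 RPKM were kept and 177 short RNAs left out, leaving 11571. With 1 library per group there is no test, and differences were read against fixed folds.

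The value of 1 read came from ratios between low values, and absolute depth from these and GENCODE release 29 transcript lengths, so depths and read numbers are estimates. Exact 95% intervals of ratios (binomial, scipy 1.17.1) cover counting error only. Lengths and GC content, found for 93.2% of genes, were used to remove smooth trends (lowess, fraction 0.2, 2 rounds, statsmodels 0.14.6). The methods were tested on simulated data. The members and lists were chosen with earlier results of these data known. All 10 members are named, and of the wider list those at least 1.5-fold apart in any comparison and the highest and lowest in S473D minus wt of each role, with other genes added as partners of these after their values were seen. Likeness was the Euclidean distance over both differences from wt. Alternatives were another pseudocount (0.1 or 0.5), keeping low genes or asking for a mean of 5 RPKM, short RNAs kept, centring on the median, scaling by the mean log ratio after trimming both ends (30% by ratio, 5% by level) and removal of the trends.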

Additional observations from a re-analysis of the deposited data

How the results depend on the processing

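Of 213 values of the 9 genes under the alternatives, 0 changed sign after standing 1.5-fold apart, 177 stayed within the counting interval of the value as reported and 36 moved further. Keeping low genes, asking for a mean of 5 RPKM and keeping short RNAs cannot move a gene's own value. Values under these settings are among the 177 by construction. Only AKR1C3 and NQO1 in S473D minus wt and AKR1C3 in S473D minus S473A could count as a change of sign. NQO1 ranged from 0.65 to 0.82 in S473D minus wt and from 0.28 to 0.29 in S473A minus wt, AKR1C3 from 0.58 to 1.15 and from 0.37 to 0.46, and ABCC1 from -0.62 to -0.26 in S473D minus wt. KEAP1 (-0.07 to 0.07), GCLM (-0.19 to 0.02), HMOX1 (-0.14 to 0.05) and NFE2L2 (-0.02 to 0.17), all near 0 in S473D minus wt, and AKR1B1 in S473D minus S473A (-0.19 to 0.03), had another sign under 1 or more of removal of the trends, centring and scaling. With the trends removed, 1 of the 9 genes was 1.5-fold apart between S473D and wt and 0 between S473D and S473A, where 539 and 542 of 10781 genes were. With a pseudocount of 0.1 there were 2 of the 9 between S473D and S473A, where 1721 of 11571 genes were. With pseudocounts of 0.1 and 0.5 there were 3 of the 9 between S473D and wt, where 1730 and 1424 of 11571 genes were. The added gene was ABCC1, lower in S473D. The median of the wider list moved to 0.13 in S473D minus wt and 0.12 in S473D minus S473A with centring, and to 0.11 in S473D minus S473A at a minimum mean of 5 RPKM. It was below 0 with the trends removed (-0.06 in S473D minus wt and -0.05 in S473D minus S473A) and with no filter on low values (-0.03 and -0.02). The medians of all genes were -0.10 and -0.10 with the trends removed, and -0.03 and -0.03 with no filter. Over all genes, the number 2-fold apart between S473D and wt, 126 as reported, was 205 with a pseudocount of 0.1 and with centring, 217 with scaling and 54 with the trends removed, and the 1164 genes 1.5-fold apart became 539 there. Between S473D and S473A the 131 genes 2-fold apart became 218 with a pseudocount of 0.1, 219 with centring, 229 with scaling and 64 with the trends removed, and the 1141 genes 1.5-fold apart became 1721 with a pseudocount of 0.1 and 542 with the trends removed. Between S473A and wt the 2 genes 2-fold apart became 14 and 7 with pseudocounts of 0.1 and 0.5, 0 at a minimum mean of 5 RPKM, 19 with short RNAs kept and 1 with the trends removed, and the 28 genes 1.5-fold apart became 66 with a pseudocount of 0.1, 9 at a minimum mean of 5 RPKM and 77 with short RNAs kept. The cause of these changes was not tested. No paired analysis was possible because each group has 1 library. AKR1C1, below 0.2 RPKM, is limited by depth, and HMOX1 rests on under 200 reads per library.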

Other observations

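Antioxidant enzymes outside the lists above were picked after the values of those lists were seen. As deposited, 11 of 13 were higher in S473D than in wt, where 39% of all genes with a matched length were, and with the length and GC trends removed 7 of the 13 were, where 34.5% of those genes were. The peroxiredoxin genes PRDX2, PRDX3, PRDX4 and PRDX5, whose products reduce peroxides, and the mitochondrial thioredoxin gene TXN2 had a median difference of 0.48 in S473D minus wt, or 0.11 with the trends removed. PRDX5 was then below wt (-0.05) and PRDX2 near it (0.03), both above the median of -0.10 for all genes with the trends removed. The median of 4 glutaredoxin genes was 0.36 as deposited and -0.02 with the trends removed, and that of 3 superoxide dismutase genes and catalase was 0.15 and -0.12. For all genes the median was -0.10 both as deposited and with the trends removed. PRDX4, the peroxiredoxin of the endoplasmic reticulum, stood at 91.1 RPKM in S473D, 47.5 RPKM in S473A and 46.6 RPKM in wt, a difference from wt of 0.95 in S473D, or 0.52 with the trends removed. SOD1, the cytosolic superoxide dismutase, stood at 195 RPKM in S473D, 134 RPKM in S473A and 143 RPKM in wt, and its difference of 0.45 in S473D minus wt was -0.13 with the trends removed. Its mitochondrial counterpart SOD2 stood at 44.2 RPKM in S473D, 56.5 RPKM in S473A and 57.3 RPKM in wt. Between S473A and wt the peroxiredoxin and TXN2 differences lay within -0.05 and 0.06, and GLRX, a glutaredoxin gene, was at -0.22.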
